A study of Homo sapiens with 23 samples.

Results

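Histone genes were examined in thalamus organoids (ThOs), which are grown from human pluripotent cells under conditions that favour thalamic fates, by RNA-seq. A gene was taken as a histone gene when its symbol follows the histone naming scheme, either a family name with C and a number (H2AC17, H4C9), or H1, H4 or H3-3 with a hyphen, H2AX, H2AZ or MACROH2A. Of the 9497 genes in the tables, 56 that met this rule are described. The 43 genes with C and a number are the replicative core histone genes of the clusters on chromosomes 6 and 1, with 11 of family H2A, 13 of H2B, 9 of H3 and 10 of H4. The other 13 comprised the 4 linker histone genes H1-2, H1-3, H1-4 and H1-5 of the chromosome 6 cluster, and 9 genes outside the clusters. These 9 were H1-10, H2AX, H2AZ1, H2AZ2, MACROH2A1, MACROH2A2, H3-3A, H3-3B and H4-16, the last of which lies on chromosome 12 and encodes ordinary H4 rather than a variant. RefSeq lists more protein-coding genes of each kind, for example 17 replicative H2A, 18 H2B, 13 H3 and 14 H4 genes, and those without a row were not analysed here.

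Nucleosomes wrap DNA around an octamer of H2A, H2B, H3 and H4, and linker histone H1 binds where the DNA enters and leaves. The replicative genes supply these proteins during S phase. Their mRNAs end in a stem-loop bound by SLBP in place of a poly(A) tail, and they are removed when DNA synthesis stops. Most variant genes are transcribed throughout the cell cycle into polyadenylated mRNA and supply nucleosomes outside replication, so in neural tissue the replicative genes are known as genes of dividing progenitors and H3-3A and H3-3B as the H3 source of post-mitotic cells. H2AX is intermediate, since its mRNA can end in either form.

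All ThOs came from H1, an established human embryonic stem cell line. The groups were unedited cells (WT), cells edited by CRISPR/Cas9 at c-JUN, which encodes part of AP-1 (KO), and the knockout with c-JUN expressed again from a doxycycline-inducible construct (OE), each collected at day 25 and day 30 with 2 libraries a group and 3 pooled ThOs a library. OE and KO ThOs are both labelled as edited at c-JUN, but they may come from different clones. The parts of clone, construct and inducer in a difference between them therefore cannot be told apart. In a difference from WT the edit is added to these. Which of the knockout clones gave the libraries, and whether WT and KO ThOs also received doxycycline, is not given in the sources used here. No source says whether the 2 libraries of a group came from separate differentiations, so p-values measure only the spread between these libraries. The ATAC-seq and CUT&Tag samples of the series were not analysed here.

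Each table held 1 normalized value per gene, a whole number from 11 to 9910, and the median was 106 in each of the 12 libraries. The depth behind the values is unknown and they are not known to be scaled per length, so levels were compared between libraries and not between genes. The replicates labelled KO were the least alike (Spearman correlation over all genes of 0.821 at day 25 and 0.769 at day 30, against 0.936 to 0.959 in the other 4 groups), and the KO day 30 replicate 2 library correlated least with the other 11 (median 0.745). JUN, the targeted gene, had values of 139, 153, 128 and 162 in the WT libraries, in the order day 25 replicates 1 and 2, then day 30 replicates 1 and 2, which is used for all values below. It had 353, 196, 222 and 248 in the KO libraries and 224, 212, 362 and 202 in the OE libraries. JUN was thus higher in every library labelled KO than in every WT library (exact permutation test, two-sided p = 0.0286, n = 4 against 4, the smallest p this design allows). The OE values of 202 to 362 overlapped the KO values of 196 to 353. OE minus KO is therefore a difference between labels and is not shown here to be one in JUN level. A value for the whole gene does not show whether the edit disrupts the protein, so WT, KO and OE name labels throughout. The study reported that its knockout clones lacked c-JUN protein by western blot. It also reported no c-JUN mRNA by RT-qPCR during neural progenitor and cerebral organoid induction. For the re-expression it reported c-JUN protein in KO cell lines by western blot. By ATAC-seq of day 25 ThOs it reported less accessible chromatin at c-JUN in KO than in WT and OE. The JUN values of 196 to 353 in the KO libraries differ from that mRNA result, and the reason was not tested. None of these assays was used here. Of 8 thalamus markers looked up later, TCF7L2 (128 to 246 in WT, 109 to 341 in KO, 123 to 465 in OE), LHX9 and OTX2 had a row, and GBX2, LHX2, OLIG3, FOXP2 and DBX1 did not and were not analysed here. OTX2 is also counted below as a choroid plexus marker.

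The promoters of the families differ in sequence, and they are shown because the replicative genes were higher together in OE ThOs, as described below. RefSeq windows of GRCh38.p14 that run from 250 bases before to 50 after the start of a gene were found for 53 of the 56 genes (none for H2AC12, H4C1 and H4C3). The 150 bases before the start, read 5′ to 3′ on the strand of the gene, are given for H1-3, the replicative genes with the largest changes that passed the test among those with a window in H2A, H2B, H3 and H4, and the replacement variant H3-3A. Capitals mark the octamer ATTTGCAT (ATGCAAAT on the other strand), the TATA box TATAAA on the strand of the gene, and the CCAAT box (ATTGG on the other strand).
H1-3: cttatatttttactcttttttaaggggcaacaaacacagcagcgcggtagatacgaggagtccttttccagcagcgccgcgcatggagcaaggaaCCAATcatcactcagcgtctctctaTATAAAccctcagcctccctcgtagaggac
H2AC17: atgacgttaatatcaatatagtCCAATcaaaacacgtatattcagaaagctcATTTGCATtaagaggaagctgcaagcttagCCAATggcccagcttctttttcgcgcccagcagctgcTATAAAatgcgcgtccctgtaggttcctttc
H2BC17: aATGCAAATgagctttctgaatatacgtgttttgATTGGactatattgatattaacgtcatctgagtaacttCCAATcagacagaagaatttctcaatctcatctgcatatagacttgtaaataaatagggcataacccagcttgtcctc
H3C10: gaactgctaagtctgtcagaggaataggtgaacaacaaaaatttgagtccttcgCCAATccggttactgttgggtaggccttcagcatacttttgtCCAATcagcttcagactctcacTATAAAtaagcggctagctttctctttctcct
H4C9: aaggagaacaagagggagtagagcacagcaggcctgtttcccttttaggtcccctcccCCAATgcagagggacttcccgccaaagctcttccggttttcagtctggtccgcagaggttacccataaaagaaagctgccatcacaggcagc
H3-3A: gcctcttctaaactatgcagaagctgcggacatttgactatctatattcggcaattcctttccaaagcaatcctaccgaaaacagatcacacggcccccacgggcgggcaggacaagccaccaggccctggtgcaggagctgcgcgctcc
The stretches of H1-3 (chr6:26234988-26235137, minus strand), H3C10 (chr6:27809901-27810050, plus strand) and H4C9 (chr6:27139132-27139281, plus strand) lie in the chromosome 6 cluster, and that of H3-3A (chr1:226061681-226061830, plus strand) lies outside the clusters. H2AC17 (chr6:27893186-27893335, minus strand) and H2BC17 (chr6:27893275-27893424, plus strand) are divergent neighbours whose starts lie 239 bases apart, so their stretches overlap and contain the same octamer, 98 bases before the start of H2AC17 and 149 bases before that of H2BC17. Both also carry CCAAT boxes, and H2AC17 has a TATA box 31 bases before its start. H3C10 and H1-3 have a TATA box at 32 and 30 bases, H4C9 has a CCAAT box at 92 bases without a TATAAA match, and the stretch of H3-3A holds none of the 3 motifs.

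Over all windows with a match in RefSeq, the octamer was found in 9 of 10 replicative H2A and 10 of 13 H2B genes and in none of the 9 H3, 8 H4 and 4 cluster H1 genes, against 1.77% of 35116 windows genome-wide. Outside the clusters only the window of H3-3B held it, among 9. The TATAAA box was present in 23 of the 40 replicative windows and in 5 of the 9 outside the clusters (7.33% of all windows). A CCAAT box was present in every H2A, H2B, H3 and cluster H1 window and in 1 of 8 H4 windows (34.6% of all windows). These are matches of letters in a fixed window, and no binding was measured at them.

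**Figure D1:**
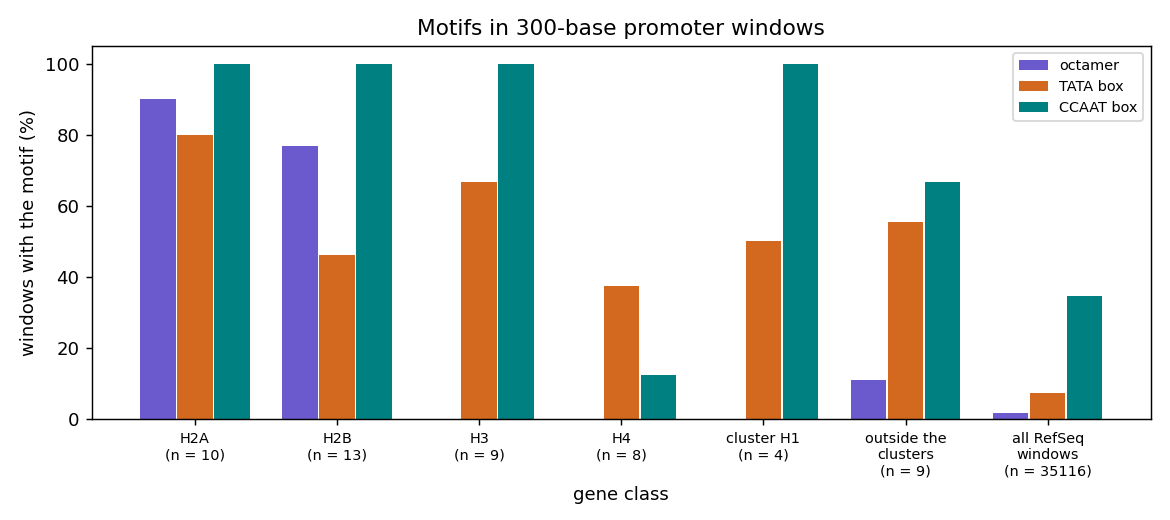
Share of 300-base promoter windows (y axis, %) that hold the octamer, the TATA box or the CCAAT box, by histone class (x axis, number of windows in brackets) and for all RefSeq windows. The octamer bars stand at 90.0% for H2A and 76.9% for H2B and at 0 for H3, H4 and cluster H1 genes, against 1.77% of all windows.

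The replicative genes had higher summed values in OE ThOs than in KO ThOs. The summed value of the 43 replicative genes was 14368, 15000, 13604 and 18005 in the OE libraries and 6969, 4796, 11167 and 4098 in the KO libraries. It was 5205, 11135, 7939 and 8958 in the WT libraries. Every OE sum therefore exceeded every WT and KO sum, and the highest KO sum was that of day 30 replicate 1. The 4 cluster H1 genes followed, with sums of 2366 to 2750 in OE, 1336 to 1900 in KO and 1674 to 2173 in WT. Sums of the 9 genes outside the clusters overlapped, with values of 3973 to 4581 in OE, 3109 to 4249 in KO and 3986 to 4581 in WT. The difference between the classes was not tested.

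**Figure D2:**
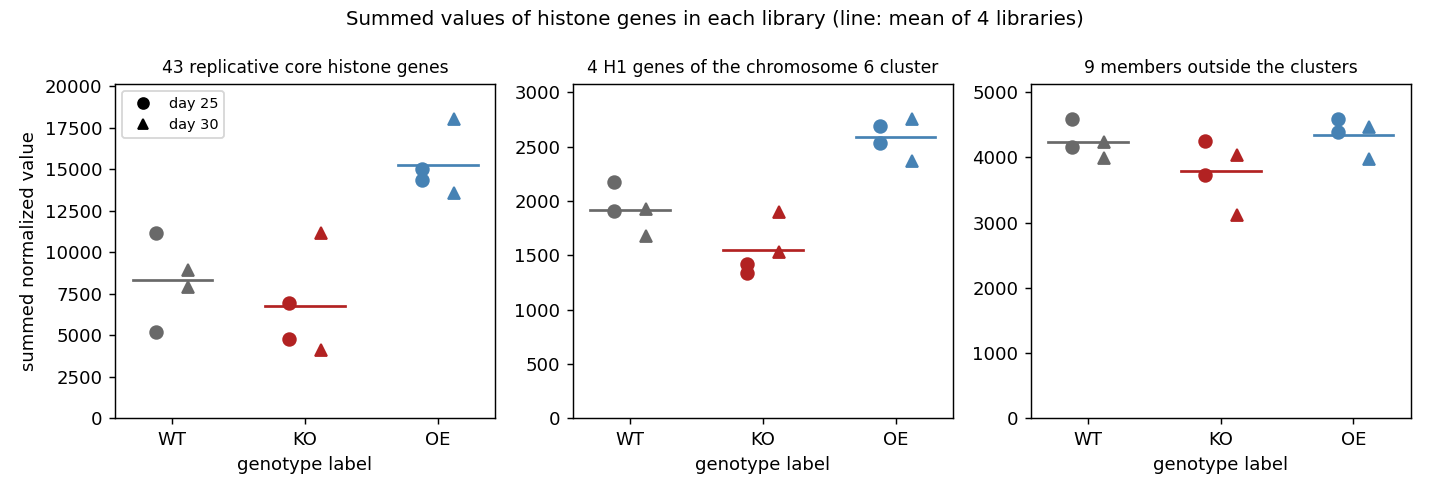
Summed normalized value (y axis, from 0) of the replicative genes, the cluster H1 genes and the genes outside the clusters in each of the 12 libraries by genotype label (x axis); circles are day 25, triangles day 30, and lines are means of 4 libraries. OE libraries lie above all others in the first 2 panels (replicative means 8309.2 in WT, 6757.5 in KO and 15244.2 in OE) and overlap with them in the third.

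Gene by gene, OE was compared with KO over both days with limma, in 1 model of all 12 libraries with p-values adjusted over all 9497 genes. A gene passed if its adjusted p was under 0.05 and it changed 2-fold or more. On the log2 scale the difference was above 0 for 43 of 43 replicative genes (51.4% of all genes), with a median of 1.30 (2.46-fold) and a range of 0.20 to 2.22, while the median of all genes was 0.01. Among them 16 passed as higher and 0 as lower, against 1.05% of all genes passing as higher and 1.17% as lower. In 29 of the 43, all 4 OE values exceeded all 4 KO values (5.17% of all genes). Of the cluster H1 genes 1 passed (median 0.85) and all 4 had non-overlapping groups. Of the 9 genes outside the clusters 0 passed by limma, 3 were higher at an unadjusted p under 0.05 (11.5% of all genes), 2 (H2AX and H2AZ1) had groups that did not overlap, and the median was 0.15. The number that passed depended on single libraries, since with 1 library left out between 0 and 42 of the 56 genes passed instead of 17 (2.22% of all genes). Leaving out OE day 25 replicate 1 or OE day 30 replicate 2 gave 0 (0.442% and 0.274% of all genes), and leaving out OE day 25 replicate 2 gave 1 (0.421%). The count was 3 if KO day 30 replicate 2 was dropped (0.653%), 4 if KO day 25 replicate 2 (2%) or either WT day 30 library (0.958% and 0.969%) was, and 7 if OE day 30 replicate 1 was (1.71%). It was 42 if KO day 30 replicate 1 was dropped, when 10.2% of all genes passed, and 0 when only the libraries compared were fitted (0.116%). Over all 23 alternatives at least 42 replicative genes stayed above 0 and the replicative median stayed between 0.84 and 1.74.

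Among H2A genes, which encode the partner of H2B in the nucleosome, 4 of 11 passed, with a family median of 1.19. H2AC17 had the largest difference of these, with OE values of 454, 454, 397 and 458 against KO values of 84, 101, 313 and 38. The groups did not overlap, and the WT values of 198, 318, 226 and 239 lay below all OE values as well. The log2 fold change over KO was 2.12 ± 0.48 (SE; limma adjusted p = 0.0416), a 4.34-fold difference, and it was 1.37 to 2.87 over the alternatives. H2AC12 had OE values of 270, 247, 192 and 370 and KO values of 72, 33, 186 and 104, a log2 fold change of 1.66 ± 0.357 (limma adjusted p = 0.0349). H2AC7 was higher by 1.61 ± 0.356 (limma adjusted p = 0.038), with OE values of 158, 198, 190 and 304. Here the KO day 30 replicate 1 value of 173 lay above the lowest OE value, so the groups overlapped, the other KO values being 41, 32 and 86. H2AC4 rose by 1.19 ± 0.27 (limma adjusted p = 0.0416) from KO values of 38 to 81 to OE values of 120 to 167. The other 7 H2A genes did not pass. The members with the highest and lowest mean value of each family are also named, although values are not per length and do not rank the genes. H2AC8, the highest in H2A, had 252 to 542 in WT, 209 to 558 in KO and 710 to 924 in OE, and H2AC21, the lowest, had 48 to 160 in WT, 28 to 100 in KO and 90 to 138 in OE.

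Among H2B genes 5 of 13 passed, and the family median was 1.40. H2BC17, the divergent partner of H2AC17, had OE values of 592, 598, 411 and 445, KO values of 186, 132, 278 and 38, and WT values of 248, 344, 228 and 258. Like its partner it was higher in all OE libraries than in any other, with a log2 fold change over KO of 1.98 ± 0.453 (SE; limma adjusted p = 0.0422). H2BC7 had OE values of 344, 412, 300 and 378 and KO values of 85, 78, 261 and 42, a log2 fold change of 1.93 ± 0.438 (limma adjusted p = 0.0416). H2BC13 had OE values of 340, 374, 298 and 392 and KO values of 85, 94, 246 and 89, a log2 fold change of 1.59 ± 0.311 (limma adjusted p = 0.0275). In both genes the KO day 30 replicate 1 value was the highest of its group yet below every OE value. H2BC9 rose by 1.32 ± 0.248 (limma adjusted p = 0.0224) and H2BC12 by 1.15 ± 0.22 (limma adjusted p = 0.0244). In the other 8 H2B genes, including H2BC8 and H2BC6, the members with the highest and lowest mean value, the log2 difference was 1.15 or more but did not pass.

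H3 and H4 form the tetramer at the core of the nucleosome. Of the 9 replicative H3 genes 5 passed, and in all 9 the OE and KO values did not overlap. H3C10 had OE values of 281, 286, 323 and 436 and KO values of 108, 99, 214 and 88, a log2 fold change of 1.44 ± 0.299 (SE; limma adjusted p = 0.032). H3C8 rose by 1.41 ± 0.334 (limma adjusted p = 0.045) and H3C4 by 1.24 ± 0.262 (limma adjusted p = 0.0336). H3C14 and H3C15 are near-identical copies on chromosome 1, and their values differed by at most 2 in every library. Reads from such copies can be divided between them by the counting step, so the pair was read as 1 measurement, although both entered the count of 16. H3C14 had OE values of 241, 241, 252 and 338 and KO values of 134, 142, 162 and 78 (log2 fold change 1.08 ± 0.249, limma adjusted p = 0.0422). No other pair of replicative genes was this close (tolerance 3 in every library), and H3C13, in the same chromosome 1 cluster and the H3 gene with the lowest mean value, had its own values of 82 to 109 in OE, 28 to 68 in KO and 44 to 85 in WT.

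Replicative H4 genes encode the same protein. They had the highest family median, 1.51, with a range of 0.20 to 2.22, and 2 of 10 passed. H4C9 had OE values of 391, 400, 408 and 454 and KO values of 133, 46, 270 and 134, a log2 fold change of 1.75 ± 0.322 (SE; limma adjusted p = 0.0212), and it passed in 18 of the 23 alternatives, the most of the 17 genes. H4C5 was higher by 1.56 ± 0.364 (limma adjusted p = 0.0435) with OE values of 228, 328, 308 and 537, but the KO day 30 replicate 1 value of 256 exceeded the lowest of them. H4C4, the H4 gene with the highest mean value, differed by 1.13 ± 0.402 and did not pass (limma adjusted p = 0.138). H4C15 stood apart from the other replicative genes. It had the lowest mean value of the H4 genes, its OE values of 40, 51, 36 and 40 lay within the KO range of 11 to 93, and KO day 30 replicate 2, the lowest of the 12 libraries in 25 of the 43 replicative genes, was the highest in this one. H4C14, with values of 276 to 458 in OE and 31 to 214 in KO, lies on the other strand on the far side of the H3C14 and H3C15 copies, and the spans of H4C14 and H4C15 are 7111 and 7115 bases. How reads shared by such copies were counted is not given, so the values of H4C15 are uncertain.

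Of the cluster H1 genes, H1-3 passed with OE values of 465, 546, 440 and 546 against KO values of 216, 276, 301 and 209 (log2 fold change 1.00 ± 0.169, SE; limma adjusted p = 0.0166). H1-2 had the smaller adjusted p of 0.00982 by limma with OE values of 788, 733, 788 and 852 and KO values of 332, 302, 586 and 411, but its change fell just short of 2-fold over both days. H1-4 and H1-5 differed by 0.71 and 0.49 on the log2 scale, H1-5 with an adjusted p of 0.0422 by limma and a change under 2-fold. All 4 had OE values above all KO values, with smaller differences than the median replicative gene.

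Outside the clusters, the replacement H3 genes were nearly level between the labels. H3-3A had values of 1128, 1258, 1128 and 1080 in WT, 1329, 1046, 946 and 790 in KO and 1128, 1128, 895 and 1010 in OE, with a log2 difference of OE over KO of 0.04 ± 0.116 (SE). H3-3B had 854 to 948 in WT, 678 to 854 in KO and 823 to 972 in OE, a difference of 0.17 ± 0.116. H2AX, which marks DNA breaks when phosphorylated, had OE values of 238, 285, 276 and 308 above KO values of 196, 120, 216 and 90, a difference of 0.91 ± 0.315 that did not pass (limma adjusted p = 0.13). H2AZ1, one of the H2A.Z genes found at promoters, differed by 0.89 ± 0.316 (limma adjusted p = 0.138), and its low KO value was 108 in day 30 replicate 2, the other 3 being 338 to 431. Its paralogue H2AZ2 differed by 0.15 ± 0.153. MACROH2A2 and MACROH2A1, associated with silent chromatin, differed by 0.66 ± 0.214 (limma adjusted p = 0.113) and 0.09 ± 0.142. The linker histone gene H1-10 and H4-16 differed by -0.02 ± 0.17 and -0.35 ± 0.369. H4-16 encodes the same protein as the replicative H4 genes but had its highest value, 120, in KO day 30 replicate 2.

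**Figure D3:**
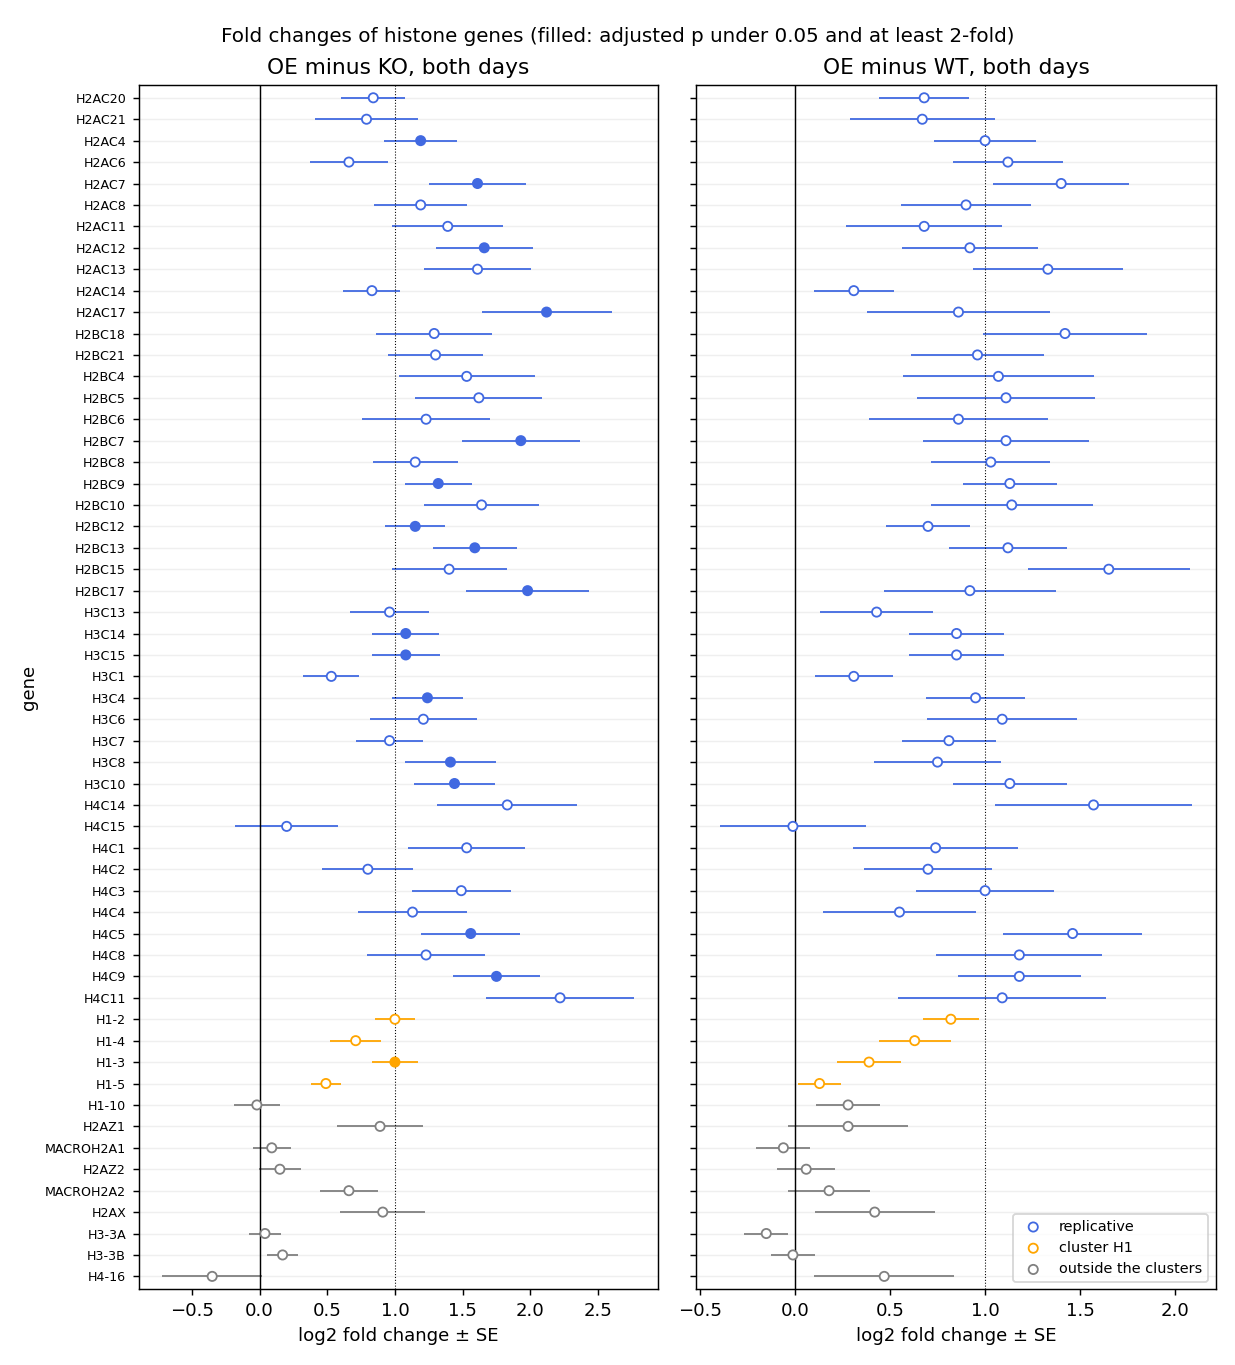
Log2 fold change (x axis, bars are SE) of each of the 56 histone genes (y axis) for OE minus KO and OE minus WT over both days; filled points passed and the dotted line marks a 2-fold change. All 43 replicative points lie above 0 in the left panel, with 16 of them filled, while the genes outside the clusters have a median of 0.15; no point is filled in the right panel, where the replicative median is 0.96.

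The comparisons of OE with KO within each day were made with 2 libraries against 2. At day 25 the replicative median was 1.36, and 42 of the 43 genes had both OE values above both KO values, against 24.5% of all genes. Only H1-2 passed, at 1.26 ± 0.206 (limma adjusted p = 0.0439; 0.126% of all genes passed as higher), with OE values of 788 and 733 and KO values of 332 and 302. This call rested on the set of libraries, since between 0 and 19 histone genes passed at day 25 with 1 library left out. The 19 came without KO day 30 replicate 1 or replicate 2, when 3.55% and 3.59% of all genes passed. At day 30 the replicative median was 1.28, and 36 genes had both OE values higher and 1 had both lower (18.7% of all genes higher and 18.5% lower). At that day 0 histone genes passed by limma (0.0842% of all genes did), and 36 did without KO day 30 replicate 1, when 15.2% of all genes passed. A test of the change in the OE minus KO difference between the days gave 0 histone genes at an adjusted p under 0.05 by limma and 1 at an unadjusted p under 0.05 (5.38% of all genes).

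Whether the OE level exceeded that of unedited ThOs was asked by comparing OE with WT, which uses the same OE libraries as the comparison with KO, so the 2 are not independent. Over both days 42 of 43 replicative genes had a log2 difference above 0 (50.2% of all genes), with a median of 0.96 (1.94-fold) and a range of -0.01 to 1.65 against a median of 0 for all genes. By limma 0 histone genes passed (0.158% of all genes did), and 29 replicative genes were higher at an unadjusted p under 0.05 (3.53% of all genes). In 31 of the 43 all OE values exceeded all WT values (4.13% of all genes). In 24 of the 43 the 4 OE values exceeded all 8 WT and KO values, which held for 1.66% of all genes. The number that passed was 17 with library weights (0.958% of all genes), 13 when only the WT and OE libraries were fitted (0.716%) and 11 without replicate 2 of both KO groups (0.674%), which are not among the libraries compared. The largest difference was that of H2BC15, chosen after its values were seen, with OE values of 142, 162, 229 and 354 and WT values of 40, 93, 66 and 75 (1.65 ± 0.425, SE; limma adjusted p = 0.213). H2BC9, with OE values of 220, 223, 252 and 328 and WT values of 106, 156, 93 and 112, differed by 1.13 ± 0.248 (limma adjusted p = 0.141). H1-2 was nearest to passing among the cluster H1 genes, at 0.82 ± 0.146 (limma adjusted p = 0.0624). The 9 genes outside the clusters had a median of 0.18, and 0 of them were higher at an unadjusted p under 0.05 by limma.

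KO ThOs were compared with WT ThOs to ask whether the KO label went with a change in histone genes. The edit, the clone and any difference in doxycycline cannot be told apart in this comparison. By limma 0 of the 56 passed (0.0211% of all genes did), 6 were lower and 1 higher at an unadjusted p under 0.05 (8.16% and 7.01% of all genes), and no histone gene had groups that did not overlap (2.74% of all genes higher, 3.14% lower). The replicative median was -0.29, with 3 of 43 above 0 (47.7% of all genes) and a range of -1.26 to 0.46. H2AC17 had the largest of these differences, at -1.26 ± 0.48 (SE; limma adjusted p = 0.261). The direction of the median rested on 1 library, as it was 0.03 without KO day 30 replicate 2 and became 0.12 if replicate 2 of both KO groups was dropped. Without KO day 30 replicate 1, 8 histone genes passed, as did 5.66% of all genes. Within single days 0 passed by limma (0.0105% of all genes at day 25 and 0% at day 30). At day 25 this became 3 without replicate 2 of both KO groups (4.44% of all genes), and at day 30 it became 10 without KO day 30 replicate 1 (11.4%). The replicative median within days also turned with 1 library, from -0.46 to 0.18 at day 25 without WT day 25 replicate 2 and from -0.35 to 0.38 at day 30 without KO day 30 replicate 2. Between day 30 and day 25, 0 histone genes passed over all genotypes (0% of all genes), and the replicative median of that difference was 0.13 in WT, 0.24 in KO and 0.12 in OE. Over all genotypes it was 0.15, and it was -0.07 without WT day 25 replicate 1 and -0.13 without KO day 30 replicate 1.

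The spread between replicates was itself shared by the replicative genes. In WT at day 25, replicate 2 was higher than replicate 1 in 42 of 43 genes and lower in 0, by a median of 1.11 on the log2 scale (2.16-fold), while all genes differed by 0.02. In KO at day 30, replicate 2 was lower in 41 genes and the median difference was -1.27 (2.42-fold), and KO at day 25 had -0.35. In OE the differences were 0.03 at day 25 and 0.42 at day 30, the latter with replicate 2 higher in all 43. The genes outside the clusters differed by 0.25 in WT at day 25 and by -0.33 in KO at day 30. H2BC4 shows the pattern of a single gene, chosen after its values were seen, with WT values of 114, 402, 220 and 214 and KO values of 202, 96, 416 and 74. For each replicative gene, Pearson's correlation of its log2 values with the median of the other replicative genes over the 12 libraries had a median of 0.92, and 38 of 43 reached 0.8. These values describe 12 libraries that all the genes share. H2AX had 0.92, H1-4 0.92, H1-2 0.90 and MACROH2A2 0.81, and H1-3 had 0.75, H2AZ1 0.68, H1-5 0.66 and H3-3B 0.60. H3-3A had 0.12, H2AZ2 0.14, H1-10 0.20, MACROH2A1 0.21, H4-16 0.08 and the replicative H4C15 -0.01.

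**Figure D4:**
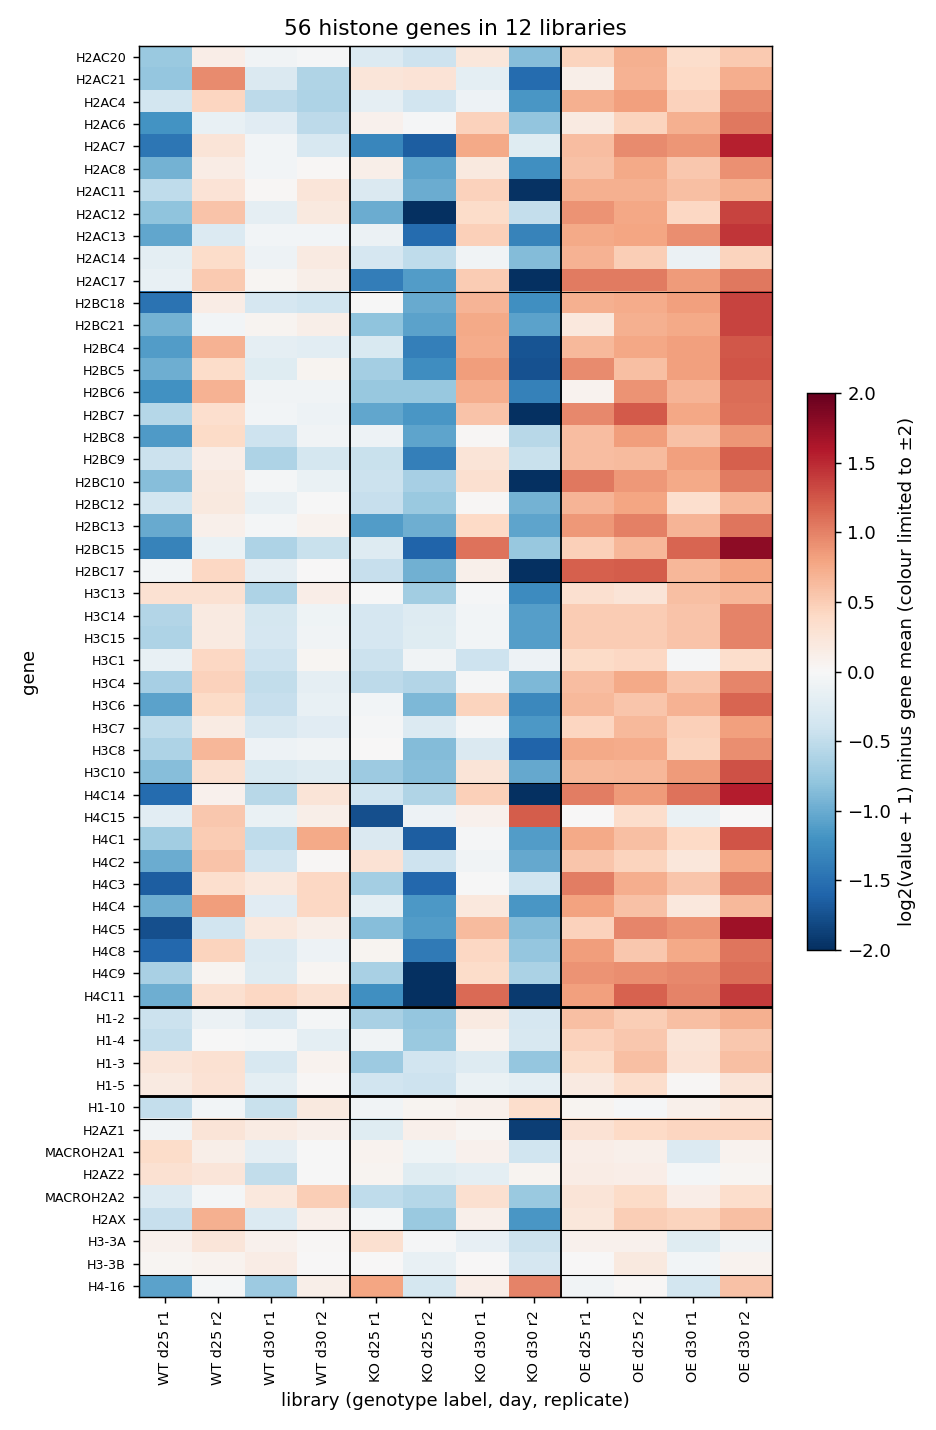
Log2(value + 1) of the 56 histone genes (rows, grouped by class and family) in the 12 libraries (columns), each minus the mean of its gene, with colours limited to ±2. Red fills the OE columns of nearly all replicative rows. Blue fills the columns KO day 25 replicate 2, KO day 30 replicate 2 and WT day 25 replicate 1 in most of these rows. H3-3A and H3-3B stay pale and H4C15 departs from its neighbours.

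Replicative genes of both chromosomes were higher in OE. The 34 replicative genes on chromosome 6 had a median OE minus KO difference of 1.41 and the 9 on chromosome 1 of 1.08, both with all genes above 0. There were 7 divergent H2A and H2B pairs whose starts lie 218 to 286 bases apart, among them H2AC17 with H2BC17, H2BC7 with H2AC7 and H2AC12 with H2BC12. Pearson's correlation within these pairs over the 12 libraries had a median of 0.90 (0.79 to 0.95), and over the 136 other H2A and H2B combinations it had a median of 0.85 (0.47 to 0.98). Some replicative genes are annotated with long transcripts that reach past the stem-loop, and 12 spanned over 1000 bases in the tables. Their median was 1.30 and that of the 31 shorter genes was 1.32, although only 1 of the long genes passed against 15 of the short ones.

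Genes of cell division and of other cell types were read beside these results, and their part in them was not tested. Of 18 listed S phase and mitosis genes, 18 had a difference above 0 in OE over KO (51.4% of all genes), with a median of 0.65. Of the 18, 3 passed as higher (1.05% of all genes). These were MKI67 (536, 570, 441 and 532 in OE against 220, 113, 353 and 109 in KO; 1.55 ± 0.321), CDC45 (1.08 ± 0.249) and MCM7 (1.06 ± 0.235), at limma adjusted p-values of 0.032, 0.0422 and 0.038. The summed value of the list was 5042 to 5373 in OE, 2715 to 3887 in KO and 3432 to 4706 in WT. In KO over WT the list had a median of -0.41, with 15 genes below 0 and 3 above (47.7% of all genes). By limma 8 were lower and 0 higher at an unadjusted p under 0.05 (8.16% and 7.01% of all genes). In OE over WT the same list had 18 genes above 0 (50.2% of all genes) and a median of 0.25. In 4 of them all OE values exceeded all WT values (4.13% of all genes), and 0 passed by limma (0.158% of all genes did). At an unadjusted p under 0.05 by limma, 2 were higher (3.53% of all genes). Between the WT day 25 replicates, where the replicative genes differed by 1.11, it differed by 0.06, and between the KO day 30 replicates by -0.47. Since the ThOs were measured in bulk, fewer dividing cells and less histone mRNA per dividing cell cannot be told apart.

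The machinery that makes and places histones moved less. The 26 listed genes of histone mRNA transcription and 3′ end processing include NPAT, SLBP and the U7 components LSM10 and LSM11. The list median was 0.27 in OE over KO and 0.08 in OE over WT, and 0 passed in either by limma. At an unadjusted p under 0.05 by limma, 6 and 1 were higher (11.5% and 3.53% of all genes). CASP8AP2, which acts at histone locus bodies, and E2F1, an S phase transcription factor, had the largest differences over KO at 1.30 ± 0.366 and 0.74 ± 0.25 (limma adjusted p = 0.0766 and 0.123). Of 35 listed chaperone and deposition genes 2 passed as higher over KO (1.05% of all genes), the median being 0.20. They were ACTL6A, a subunit of remodelling complexes, with OE values of 98, 111, 132 and 100 and KO values of 22, 46, 78 and 42 (1.34 ± 0.298, limma adjusted p = 0.0395), and HJURP, the chaperone of the centromeric H3 variant (1.01 ± 0.239, limma adjusted p = 0.0444). Another list held 6 RNAs other than histone mRNAs whose transcripts, or a main form of them, lack a poly(A) tail. NEAT1 also has a polyadenylated short form, and MALAT1 stood at the maximum of 9910 in all 12 libraries, so its difference could only be 0. The list had a median of 0.54 over KO and 0.06 over WT. By limma 0 passed over KO, with 2 higher at an unadjusted p under 0.05 (11.5% of all genes). NEAT1 and RMRP differed most over KO, at 1.06 ± 0.368 and 0.65 ± 0.241. Over WT 0 passed by limma, with 2 higher at an unadjusted p under 0.05 (3.53% of all genes). Between the WT day 25 replicates the median of this list differed by 0.94, with 4 RNAs higher in replicate 2 and 1, NEAT1, lower (314 and 192). Between the KO day 30 replicates it differed by -0.73, with 5 lower and 0 higher in replicate 2.

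Among markers of cell types, the 8 neuron markers had summed values of 6472 to 8864 in WT, 7505 to 9682 in KO and 7324 to 10238 in OE. By limma 0 passed in OE over KO, with 1 higher and 1 lower at an unadjusted p under 0.05 (1094 and 1018 of all 9497 genes). ELAVL3 and GAP43 had the largest differences, 1.56 ± 0.51 (limma adjusted p = 0.113) and -0.92 ± 0.143 (limma adjusted p = 0.0121, a change under 2-fold). At day 25 GAP43 fell, with OE values of 361 and 412 and KO values of 926 and 898 (-1.24 ± 0.202, limma adjusted p = 0.0439). The 6 listed radial glia markers had sums of 5784 to 12560 in WT, 3743 to 6114 in KO and 5765 to 6314 in OE. The 12560 was that of WT day 25 replicate 1, where VIM was at 9910 against 2670 to 3456 in the other 11 libraries. In OE over KO this list had a median of 0.29, with 4 genes above 0 and 2 below (PAX6 at -0.19 and SOX9 at -0.26). SOX2 passed (1.27 ± 0.295, limma adjusted p = 0.0429) where NES did not (0.65 ± 0.285). Of 4 listed choroid plexus markers CLDN1 fell, with OE values of 38, 32, 82 and 22 against KO values of 460, 232, 372 and 438 (-3.20 ± 0.351, limma adjusted p = 0.00212), and TTR ranged from 541 to 3453 without passing (0.86 ± 0.607). Sums of this list were 1836 to 4534 in WT, 1491 to 4554 in KO and 1753 to 4188 in OE. Of the mesenchyme markers only COL1A2 had a row (-1.63 ± 0.414, limma adjusted p = 0.0578), with 61 to 224 in OE and 162 to 734 in KO. Genes of these lists without a row were not analysed here.

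**Figure D5:**
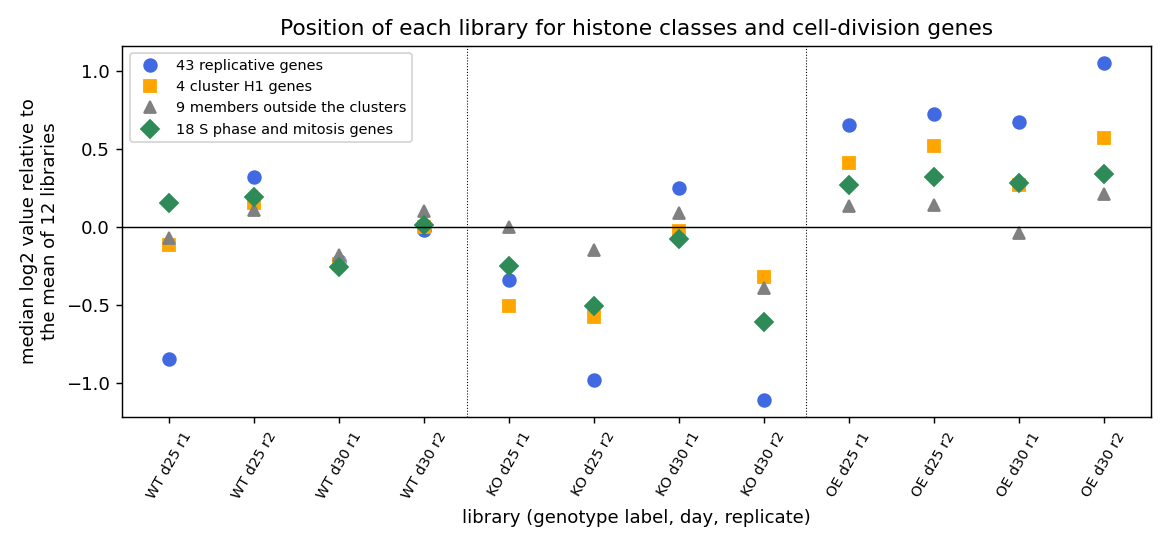
Median log2 value of each library relative to the mean of the 12 libraries (y axis) for the replicative, cluster H1 and other histone genes and for 18 S phase and mitosis genes (x axis, libraries by label, day and replicate). Replicative medians lie between 0.65 and 1.05 in the 4 OE libraries and at -0.85, -0.98 and -1.11 in WT day 25 replicate 1, KO day 25 replicate 2 and KO day 30 replicate 2, while the S phase and mitosis genes of WT day 25 replicate 1 lie above 0.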

How the data were processed

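RNA-seq was analysed for 12 ThO libraries in 6 groups of 2. The authors deposited 1 table per library whose values are a normalized expression score in whole numbers. All libraries share their minimum, median and maximum, so a distribution-equalizing step may have been used, and all 9497 genes exceed 10 everywhere. Libraries were made from total RNA without selection for poly(A) tails. Per the labels, processing named bcl2fastq, Bowtie2, RSEM and hg19 with no role given, whereas positions in the tables are on GRCh38 (55 of 56 histone genes overlapped their RefSeq GRCh38.p14 position by symbol). The normalization, and how reads shared by near-identical histone copies were treated, are not given in the sources used here. Counts and depth cannot be recovered, so no counting interval is given.

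The log2 of each value plus 1 was fitted by limma 3.58.1 (R 4.3.3), with a mean per group, empirical Bayes moderation with an intensity trend (6 residual and 5.29 prior degrees of freedom), two-sided tests and Benjamini-Hochberg adjustment over all genes in each of 8 comparisons. Fold changes on this scale understate changes of low values. A minimum value of 1 in 2 libraries removed 0 genes. The fit was tested on simulated data. Python 3.11.15 was used for levels, correlations and promoter motifs, and matplotlib 3.10.9 for plots. Of the 57 genes that met the naming rule, 1 is not reported here. Members and gene lists were chosen with earlier results of these data known. Genes named were those that passed in any comparison, all members outside the clusters, the members of each family with the highest and lowest mean, JUN, and, for each other list, those that passed and the 2 with the largest OE minus KO change, exceptions being stated. Alternatives were pseudocounts of 0.1 and 5, library weights, no trend, median centring, a replicate block, no filter, a minimum mean of 50, quantile normalization, only the libraries compared and each library left out. Leaving out both KO replicate 2 libraries was added after seeing the data.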

Additional observations from a re-analysis of the deposited data

Results flagged for a closer look

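Within the 4 libraries of a genotype label, 15 of 171 tests of the highest and lowest library placed 1 histone gene value far from the other 3, where chance flags about 5% of such groups. Of the 15 flagged values, 7 were a high value in KO day 30 replicate 1: H2BC21 at 381, H2BC6 at 164, H2BC13 at 246, H3C10 at 214, H4C5 at 256, H4C11 at 618 and MACROH2A2 at 266. In OE day 30 replicate 1, H2AC11 (710), H2AC17 (397) and H3C1 (118) were low. In OE day 30 replicate 2, H2BC18 (559), H3C14 (338) and its near-identical copy H3C15 (336) were high. In WT day 25 replicate 1, H2BC13 (92) and H4C11 (142) were low. The tests share libraries and genes that vary together, so they are not independent.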

How the results depend on the processing

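For OE minus KO over both days, the 17 histone genes that passed became 7 with the replicate block, 4 with library weights, 5 with no intensity trend, 0 when only the libraries compared were fitted, 5 without both KO replicate 2 libraries, and 0 to 42 with 1 library left out. At day 25 the 1 gene became 0 with the replicate block, library weights, no intensity trend or only the libraries compared, 13 without both KO replicate 2 libraries, and 0 to 19 with 1 library left out. At day 30 the count of 0 became 0 to 36 with 1 library left out. For OE minus WT the count of 0 became 17 with library weights, 13 with only the libraries compared and 11 without both KO replicate 2 libraries. For KO minus WT it became 0 to 8 over both days and 0 to 10 at day 30 with 1 library left out, and 3 at day 25 without both KO replicate 2 libraries. The count of the day comparison also rose without both KO replicate 2 libraries. For OE minus KO over both days, 2.22% of all genes passed in the main fit. This share was 1.46% with the replicate block, 0.432% with library weights, 1.39% with no intensity trend and 0.116% with only the libraries compared. At day 25 it was 0.274%, and 0.0842%, 0.0105%, 0.0316% and 0% in the same order. It also rose at day 25 without both KO replicate 2 libraries. That fit leaves 1 library in each KO group, so no conclusion is drawn from its count of 13.

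The replicative median of KO minus WT over both days ran from -0.64 to 0.03 with 1 library left out, the latter for KO day 30 replicate 2, and was 0.12 if both KO replicate 2 libraries were. At day 25 it was -0.91 to 0.18 against -0.46, at day 30 -0.90 to 0.38 against -0.35, and for day 30 minus day 25 -0.13 to 0.43 against 0.15. The replicative median of OE minus KO was 1 to 1.7 at day 25 against 1.36. At day 30 it was 0.54 to 1.93 against 1.28. That of OE minus WT over both days was 0.66 to 1.26 against 0.96. For OE minus KO without KO day 25 replicate 2, KO day 30 replicate 2 and both, H1-10 was 0.01, 0.04 and 0.07, and H3-3A -0.05, -0.03 and -0.11. H1-10 was 0 without OE day 30 replicate 1, and H3-3A -0.01 without OE day 30 replicate 2. MACROH2A1 was -0.03 without the second of these and -0.07 without both. H4C15 was -0.21 and -0.08 if replicate 1 of KO day 25 or of KO day 30 was dropped. Over all libraries left out singly, the highest values were 0.62 for H4C15 and 0.21 for MACROH2A1, and the lowest for H1-10 was -0.09. The JUN difference of KO over WT was 76.5 to 128.8 with 1 library left out, with p = 0.0571 by the exact permutation test without any WT library (103.4 to 114.8) and 0.0286 without any KO library. The causes were not tested.

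Replicate numbers did not pair the libraries, since correlations of same-numbered deviations between groups ran from -0.21 to 0.26, so the replicate block serves only as an alternative. The depth behind the values is unknown, near-identical histone copies may share reads, and 2 libraries a group leave 6 residual degrees of freedom for the whole fit.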
